A study of Mus musculus with 238 samples.

Results

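The 8 genes described here encode subunits of the GABA-A receptor: the alpha subunit genes Gabra2, Gabra3, Gabra4, Gabra5 and Gabra6, the beta subunit genes Gabrb1 and Gabrb2, and the delta subunit gene Gabrd. They were taken by symbol from the 21076 gene rows of the deposited count table, and all 8 had a row. RNA was sequenced in bulk from tissue of 15 brain regions of C57BL/6JN mice, each 19 months old. In the diet cohort, 5 female mice were dietary restricted (aDR) and 4 female mice were fed ad libitum (AL). In the plasma cohort, 3 male mice received young mouse plasma (YMP) and 4 male mice received PBS, both by retro-orbital injection. Not every mouse had a library of every region. Corpus callosum had the fewest libraries, 12 over both cohorts. Its plasma libraries came from YMP mice 77 and 81 and PBS mice 76, 80 and 84 alone. No transgene or mutation is named for any group, so all groups share the strain and the age. Sex and cohort cannot be told apart, since every female was in the diet cohort and every male in the plasma cohort.

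GABA-A receptors are chloride channels opened by the transmitter GABA, and each is assembled from subunits of several classes. Alpha subunits shape the binding sites for GABA and for benzodiazepines, beta subunits help to form the GABA site and anchor the receptor, and a gamma or delta subunit completes the channel. Receptors with a gamma subunit sit mainly at synapses, while receptors with the delta subunit lie mainly outside synapses and respond to low ambient GABA. The delta subunit is known to pair with alpha6 in granule cells of the cerebellum and with alpha4 in thalamus, striatum and dentate gyrus.

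The genes lie on 5 chromosomes of the mouse genome (GRCm38, gene models of GENCODE). Gabra2 (chr5:70957597-71095849, minus strand), Gabra4 (chr5:71569749-71658308, minus strand) and Gabrb1 (chr5:71658113-72149037, plus strand) form a cluster on chromosome 5. Gabra6 (chr11:42306437-42321072, minus strand) and Gabrb2 (chr11:42419757-42629028, plus strand) are neighbours on chromosome 11 with 98.7 kb between them. Gabra5 (chr7:57407672-57510059, minus strand), Gabra3 (chrX:72432681-72656848, minus strand) and Gabrd (chr4:155384980-155398112, minus strand) lie apart. The libraries carry no strand information, and reads over shared exonic bases cannot be assigned to one strand. Gabra4 and Gabrb1 start head to head and share 46 exonic bases, 0.756% and 0.332% of their exonic lengths. Gabra5 shares 148 exonic bases, 4.98% of its exonic length, with an antisense gene.

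Promoters of 7 of the 8 genes were in the RefSeq table of GRCm38.p6. The 250 bases before the annotated start are shown for the gene with the most restricted pattern, Gabra6 (chr11:42321073-42321322, minus strand), and for the gene that differed between the diets, Gabra2 (chr5:71095850-71096099, minus strand). Both are written 5′ to 3′ along the gene's strand. Capitals mark the core motif of nuclear factor I (TTGGC, or GCCAA on the other strand) in Gabra6 and the GC box (GGGCGG, or CCGCCC on the other strand) in Gabra2.
Gabra6: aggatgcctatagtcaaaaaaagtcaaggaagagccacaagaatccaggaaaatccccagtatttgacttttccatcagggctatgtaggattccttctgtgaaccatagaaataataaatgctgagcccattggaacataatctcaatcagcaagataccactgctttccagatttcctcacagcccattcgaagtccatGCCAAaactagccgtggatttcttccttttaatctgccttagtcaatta
Gabra2: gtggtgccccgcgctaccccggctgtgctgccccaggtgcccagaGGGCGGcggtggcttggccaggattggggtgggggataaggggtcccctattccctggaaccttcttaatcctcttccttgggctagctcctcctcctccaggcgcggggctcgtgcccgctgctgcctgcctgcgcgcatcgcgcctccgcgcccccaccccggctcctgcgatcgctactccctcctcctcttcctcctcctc
The Gabra6 stretch was 40.8% G and C and the Gabra2 stretch 70.0%, where the median of 32851 promoters was 52.4%. The nuclear factor I motif was found in 41.5% of these promoters and the GC box in 32.7%, both strands searched, so neither match was rare. The letters TTGGC also occurred before a start of Gabra2, Gabra4, Gabrb1 and Gabrb2, and GGGCGG before a start of Gabra4 and Gabrb2. The E-box of clock factors (CACGTG, its own reverse complement), found in 6.02% of promoters, had no match in these windows of the 7 genes.

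The 229 brain libraries held these genes at depths between 0.606 and 32.4 M counts (M, mega), with a median over all 238 libraries of 8.44 M. Levels are CPM, the counts of a gene scaled by the total of its library. Markers of neurons were present in every brain region, and those of granule cells, thalamic, striatal, olfactory bulb, hypothalamic and hindbrain neurons had their highest median in the labelled region. Choroid plexus libraries did not look like plexus alone: their summed level of 6 neuron markers (median 6035 CPM) was as high as in anterior hippocampus libraries (5678 CPM), and the 6 markers of plexus epithelium ranged from 137 to 15059 CPM. Corpus callosum libraries held 2342 to 6104 CPM of 6 markers of striatal projection neurons, and SVZ libraries 1329 to 4781 CPM. The plexus markers ranged from 8.26 to 18244 CPM in corpus callosum libraries and from 24.0 to 19279 CPM in SVZ libraries. Their highest sums elsewhere in brain were 3379 CPM in caudate putamen, 2169 CPM in cerebellum, 1506 CPM in thalamus and 1401 CPM in anterior hippocampus. Pons libraries also varied: the 6 olfactory bulb markers ran from 1.72 to 1570 CPM there (median 19.3 CPM). The 6 hindbrain markers ran from 71.5 to 436 CPM in pons (median 272 CPM), and the 6 neuron markers from 2875 to 9556 CPM. Values for choroid plexus, corpus callosum, SVZ and pons are therefore given as measured in the dissected tissue. In bulk tissue, fewer cells of a type and less RNA per cell cannot be told apart.

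In the control mice, the level of all 8 genes differed between brain regions. The test across the 15 regions called 8 of 8 genes in AL mice and 8 of 8 in PBS mice (edgeR's quasi-likelihood test, Benjamini-Hochberg adjusted p under 0.05). Most genes of the table were called too, 98.1% in AL mice and 96.1% in PBS mice, so the counts do not set these genes apart. Region accounted for 79.1% to 95.2% of the variation of log2 CPM of each gene in the diet cohort and for 73.5% to 94.6% in the plasma cohort, beside medians over all genes of 71.3% and 72.4%. Gabrb2 was the lowest of the 8 in both cohorts and Gabrd the highest in the diet cohort.

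**Figure D1:**
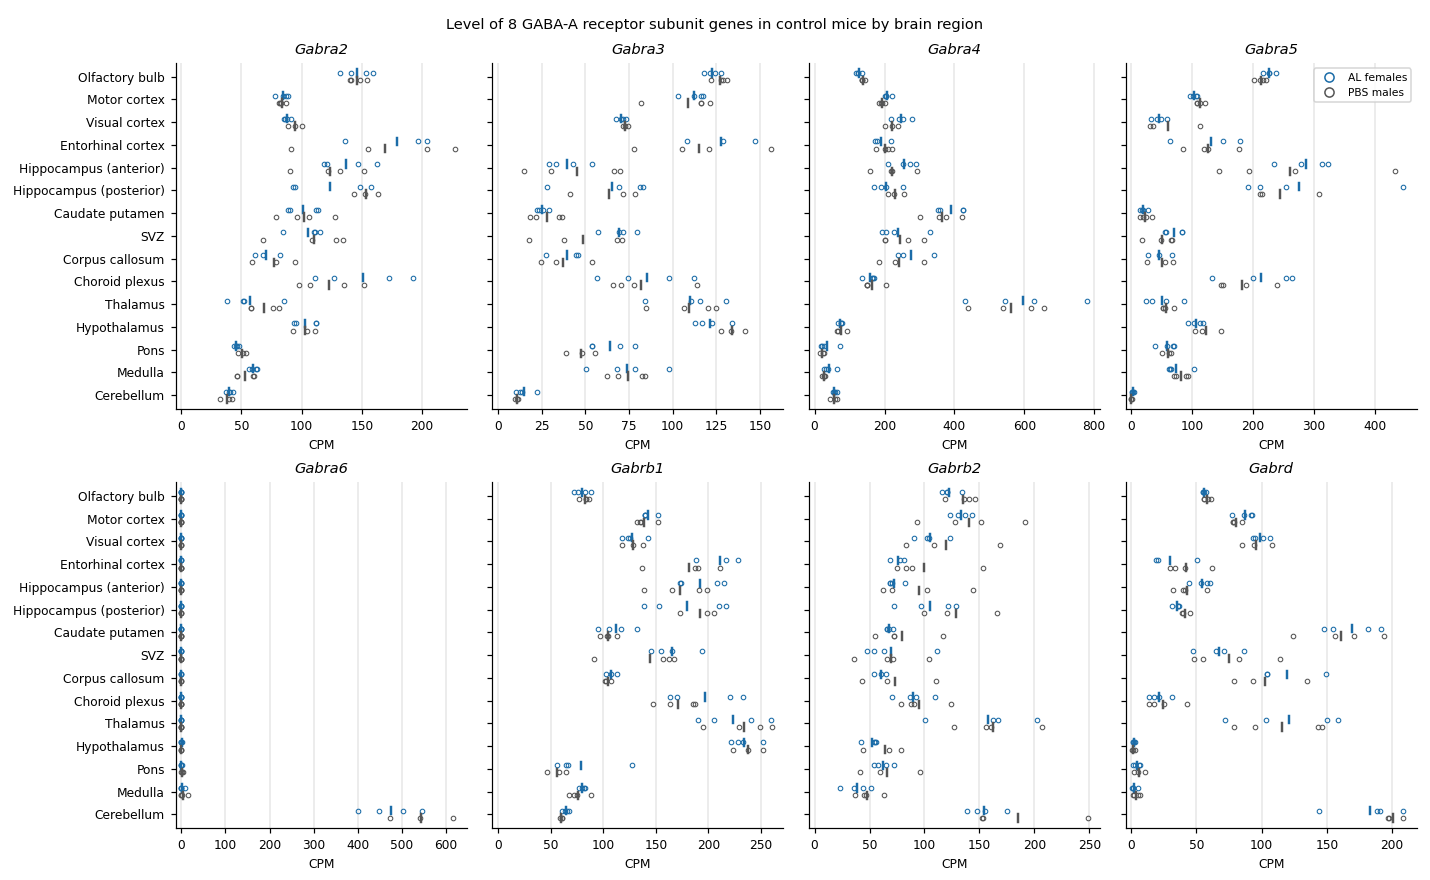
Level (CPM, linear axis) of the 8 genes in control mice, with 1 open circle per library and a bar at the group mean, AL females in blue and PBS males in grey. Gabra6 is near 0 outside the cerebellum, Gabra4 is highest in thalamus, and Gabrd is lowest in hypothalamus, medulla and pons.

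Each region was also tested against the mean of the other 14. In AL mice 79 of 120 gene and region pairs were called, where 47.6% of all pairs in the table were called. In PBS mice 71 of 120 were called, where the table's share was 41.3%. The 2 cohorts share no mouse, and 68 pairs were called in both, each in the same direction. Whether called or not, 112 of the 120 pairs had the same sign. The profile of region means in AL mice correlated with that in PBS mice by Pearson's r of 0.962 for Gabra2 to 0.9899 for Gabra4 (15 regions, a description), beside a median over genes of 0.937.

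Gabra6, which encodes the alpha subunit characteristic of cerebellar granule cells, was found almost entirely in cerebellum. Its level there was 502, 448, 402 and 547 CPM in AL mice 63, 66, 68 and 69, and 474, 542 and 616 CPM in PBS mice 72, 80 and 84. No library of another region came near these values. The cerebellum held 99.3% of the sum of the region means in AL mice and 98.9% in PBS mice. The log2 difference from the other regions was 12.46 (SE 0.26, adjusted p = 3.72e-33, edgeR) in AL mice, and this size depends on how libraries at 0 enter the model. Of the 214 brain libraries outside the cerebellum, 150 had 0 counts of Gabra6.

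Gabra6 also reached 1 CPM or more in 7 libraries outside the cerebellum, and these libraries also held a granule cell transcript. Medulla of PBS mouse 84 had 14.6 CPM of Gabra6 and medulla of AL mouse 66 had 8.17 CPM. Entorhinal cortex of aDR mouse 62 had 8.59 CPM, pons of PBS mouse 80 had 3.52 CPM, hypothalamus of AL mouse 63 had 2.57 CPM, posterior hippocampus of aDR mouse 67 had 2.53 CPM, and medulla of PBS mouse 80 had 2.17 CPM. Cbln3, the granule cell gene whose pattern is most like that of Gabra6, was at 3.79 to 25.6 CPM in these libraries. Its median in the other libraries outside the cerebellum was 0.160 CPM and its highest 2.501 CPM. Cbln3 was named by its likeness to Gabra6 over region means that include the control libraries among these 7. The match of Cbln3 with Gabra6 in those libraries is therefore not independent. In the cerebellum Cbln3 was at 724 to 1082 CPM. The summed level of all 6 granule cell markers (Cbln3, Cbln1, Fat2, Neurod1, Zic1 and Zic2) separated these libraries less, and reached 195 CPM in SVZ and 176 CPM in thalamus. The part of cerebellar tissue in these libraries was not tested. Medulla was called higher than the other regions for Gabra6 in AL mice (log2 4.39, SE 0.70) and in PBS mice (6.29, SE 0.88), and pons in PBS mice (4.29, SE 1.69). The medulla library of AL mouse 66 held all 90 counts of its group, and that of PBS mouse 84 held 128 of 156.

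Gabra4, whose alpha subunit is a partner of the delta subunit in forebrain, was highest in thalamus. Thalamus libraries held 545, 779, 431 and 628 CPM in AL mice 63, 66, 68 and 69, and 618, 438, 655 and 539 CPM in PBS mice 72, 76, 80 and 84. Thalamus was 2.09 (SE 0.13) above the mean of the other regions on the log2 scale in AL mice and 2.11 (SE 0.10) in PBS mice, with adjusted p of 1.42e-18 and 2.51e-21 (edgeR). Caudate putamen came next, at 390 ± 40.4 CPM (SD, n = 4) in AL and 364 ± 50.9 CPM (n = 4) in PBS mice, and the libraries of the 2 regions did not overlap in either cohort. Corpus callosum, SVZ, the cortical regions and hippocampus lay between 191 and 276 CPM in AL mice, where neighbours in the order overlapped from corpus callosum down to entorhinal cortex. Pons was lowest, at 35.2 ± 26.0 CPM in AL and 21.7 ± 5.31 CPM in PBS mice, and it overlapped with medulla in both.

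Gabra5, whose alpha subunit is known from extrasynaptic receptors of hippocampal pyramidal cells, was highest in hippocampus. Anterior hippocampus held 312, 279, 322 and 234 CPM in the 4 AL mice and 144, 432, 269 and 194 CPM in the 4 PBS mice. Posterior hippocampus held 211, 191, 446 and 253 CPM in AL mice, so the 2 parts overlapped. Both were above the other regions by 2.13 (SE 0.18) and 2.11 (SE 0.18) on the log2 scale in AL mice. Olfactory bulb followed at 227 ± 8.78 CPM (n = 4), a region in which Gabra5 varied little between mice. Cerebellum was lowest and far below the rest, at 2.22 ± 1.65 CPM (n = 4) in AL mice and 0.369 ± 0.182 CPM (n = 3) in PBS mice. Gabra5 and Gabra6 thus had opposite ends in cerebellum. Their region profiles had the lowest correlation of any pair of the 8 genes (r = -0.77 in AL and -0.86 in PBS mice, 15 regions, a description). That correlation rests largely on the cerebellum, since Gabra6 was near 0 elsewhere.

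Gabra2 and Gabra3, which encode alpha subunits of benzodiazepine-sensitive receptors, were spread more evenly. Gabra2 was highest in entorhinal cortex (197, 136 and 204 CPM in AL mice 63, 66 and 69) and lowest in cerebellum (40.0 ± 2.63 CPM, n = 4), a ratio of means of 4.48. Its order ran on through choroid plexus, olfactory bulb and hippocampus, and in AL mice 1 of the 14 neighbouring pairs of regions did not overlap, pons above cerebellum. Gabra3 was highest in entorhinal cortex in AL mice (128 ± 19.5 CPM, n = 3) and in hypothalamus in PBS mice (134 ± 6.91 CPM, n = 3), and these regions overlapped in both cohorts. Olfactory bulb, motor cortex and thalamus were also above the other regions in both cohorts. Caudate putamen and cerebellum were lowest for Gabra3, at 25.2 ± 2.86 and 14.8 ± 5.26 CPM in AL mice, where they did not overlap with each other.

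The beta subunit genes had the narrowest ranges. Gabrb1 was highest in hypothalamus (222, 228, 233 and 252 CPM in the 4 AL mice) and in thalamus (190, 206, 240 and 259 CPM), which overlapped. Its lowest region was cerebellum in AL mice (64.4 ± 2.70 CPM, n = 4) and pons in PBS mice (56.5 ± 8.91 CPM, n = 3). Gabrb2, the beta subunit of the most common receptor type of the adult brain, was highest in thalamus in AL mice (162, 203, 100 and 167 CPM) and in cerebellum in PBS mice (154, 153 and 248.6 CPM). Cerebellum of AL mice held 154 ± 15.4 CPM of Gabrb2, so it overlapped with thalamus. None of the 14 neighbouring pairs of regions was free of overlap for Gabrb2 in either cohort, and medulla was lowest in both (38.42 ± 12.005 and 47.76 ± 11.007 CPM, n = 4 each).

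Gabrd, the gene of the delta subunit, had the steepest gradient after Gabra6 and Gabra5. Cerebellum held 188, 191, 144 and 209 CPM in AL mice and 197, 208 and 198 CPM in PBS mice, and caudate putamen 192, 148, 182 and 154 CPM in AL mice. These 2 regions overlapped in AL mice and did not overlap in PBS mice. Thalamus (121 ± 40.9 CPM), corpus callosum (119 ± 26.2 CPM) and the visual (98.9 ± 5.69 CPM) and motor cortex (87.1 ± 7.03 CPM) followed. Hypothalamus, medulla and pons were at the bottom, with 2.06 ± 0.753, 2.19 ± 2.02 and 4.17 ± 2.54 CPM in AL mice. Hypothalamus was below the other regions by a log2 difference of -4.69 (SE 0.34) in AL and -5.43 (SE 0.44) in PBS mice.

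The partners named above showed partly shared profiles. Across the 15 regions Gabrd correlated with Gabra4 (r = 0.72 in AL and 0.68 in PBS mice) and with Gabrb2 (0.68 and 0.66), and less with Gabra6 (0.15 and 0.11). Gabra6 was near 0 outside the cerebellum, so all its correlations rest largely on the cerebellum and on values near 0. Gabra2 correlated with Gabra5 (0.72 and 0.71) and Gabra3 with Gabra5 (0.69 and 0.77). These points share libraries between the genes of a pair and are given as a description. By the same measure, computed on 13346 genes, the profiles most like a given gene were those of Cbln3, Nrk and Pcp2 for Gabra6 (r of 0.971 or more in both cohorts), Gpr12, Dlgap3 and Ywhaz for Gabra4, Epha5, Dok6 and Clvs2 for Gabra5, and Usp2, Klf9 and Ubtf for Gabrd. For Gabra2 they were Rgl1, Dynll1 and Zfp831, for Gabra3 Nme1, Cbarp and Slc6a7, for Gabrb1 Tmem8b, Pnmal1 and Cpt1c, and for Gabrb2 Nsd2, Sestd1 and Wnk2.

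To compare the genes with each other, CPM was divided by the exonic length in kb. In the cerebellum, Gabra6 made up 90.9% of the summed level per kb of the 5 alpha genes in AL mice and 92.8% in PBS mice. Gabra4 was the highest of the 5 in thalamus (65.2% and 62.3%), caudate putamen (71.0% and 67.9%), corpus callosum (56.7% and 52.3%), SVZ (41.7% and 48.0%) and visual cortex (47.7% and 41.6%). Gabra5 was the highest in the other regions, with 57.9% and 57.6% in anterior hippocampus and 51.7% and 49.1% in olfactory bulb. In motor cortex of AL mice Gabra5 (31.9%) and Gabra4 (31.6%) were nearly level. In hypothalamus, pons and medulla Gabra3 came next after Gabra5, with 33.4%, 34.0% and 31.9% in AL mice. Gabrd was 35.0% of the summed level per kb of all 8 genes in caudate putamen, 21.0% in cerebellum and 0.603% in hypothalamus of AL mice. These shares are among the genes described here and are not receptor composition.

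**Figure D2:**
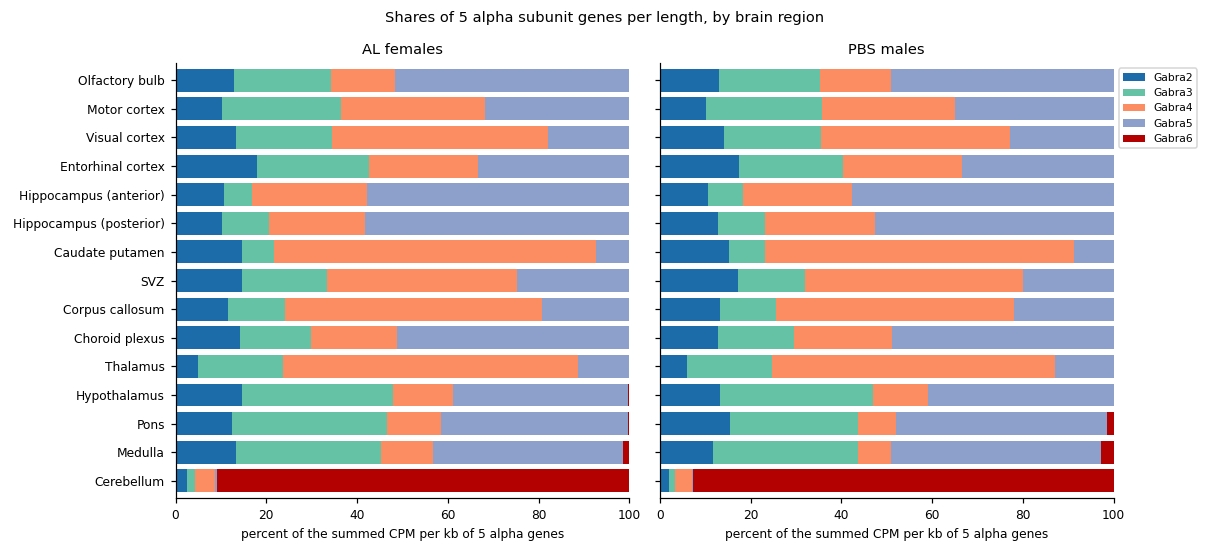
Share of each of 5 alpha subunit genes in their summed level per length (percent of summed CPM per kb of exon, group means) in the 15 brain regions, AL females on the left and PBS males on the right. Gabra6 (dark red) fills most of the cerebellum bar, Gabra4 (orange) most of thalamus and caudate putamen, and Gabra5 (light blue) more than any other gene in hippocampus and olfactory bulb.

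Related regions were compared in 5 pairs, and 13 of 40 differences were called in AL mice (18.6% of all tests in the table) and 7 of 40 in PBS mice (11.5%). Gabra2 was higher in entorhinal than in motor cortex by 1.02 (SE 0.17) on the log2 scale in AL and 0.998 (SE 0.192) in PBS mice, with adjusted p of 1.2e-05 and 2.6e-04 (edgeR). Gabrd was lower in entorhinal than in motor cortex by a log2 difference of -1.52 (SE 0.29) and -0.95 (SE 0.29). In SVZ against caudate putamen, Gabra4 (-0.84, SE 0.22, in AL and -0.67, SE 0.17, in PBS mice) and Gabrd (-1.46, SE 0.25, and -1.16, SE 0.28) were lower, while Gabra5 (1.74, SE 0.32, and 0.92, SE 0.35) and Gabrb1 (0.42, SE 0.14, and 0.34, SE 0.13) were higher. Between posterior and anterior hippocampus, Gabra3 (0.78, SE 0.22) and Gabrb2 (0.58, SE 0.19) were called in AL mice (2 of 8, where 14.6% of all genes were called) and 0 of 8 in PBS mice (6.08% of all genes), and the difference between the cohorts was not tested. The counts depended on single mice: 8 differences were called without AL mouse 63 or 66, and 4, 2 and 3 without PBS mouse 76, 80 or 84. With the treated mice added to the fit 20 were called in the diet cohort.

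Gabra2 was lower in dietary restricted than in freely fed mice across the brain. One value per mouse was made by averaging log2 CPM over its regions with the regions adjusted for. These values were 6.16, 6.14, 6.28, 6.18 and 6.09 in aDR mice 61, 62, 64, 65 and 67, and 6.52, 6.37, 6.59 and 6.48 in AL mice 63, 66, 68 and 69. Every restricted mouse was below every freely fed mouse. The log2 difference was -0.32 (SE 0.052, 95% confidence interval -0.44 to -0.20), a level about 80.0% of that in AL mice, with an adjusted p of 0.0323 (limma). The test called 0.922% of 15616 genes, 0.397% as lower, and of the 8 genes it called Gabra2 alone. The exact permutation test gave a two-sided p of 0.0159, the smallest that 5 against 4 mice can give. Mouse values of 8.30% of genes did not overlap, and among the 8 genes this held for Gabra2 and Gabrb1.

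Gabra2 was lower in aDR than in AL mice in 15 of 15 regions, as were 0.840% of the 12385 genes tested in every region. The log2 difference ran from -0.15 (SE 0.22) in thalamus to -0.53 (SE 0.25) in pons. In 8 regions the unadjusted p was under 0.05, as it was in 6.24% of all tests pooled over the regions. In 3 regions the libraries did not overlap, and the share of all genes without overlap in a region was not computed. The regions come from the same mice, so they are not independent. In no region was the adjusted p under 0.05. Motor cortex came nearest: AL mice had 84.3, 77.5, 88.6 and 86.6 CPM and aDR mice 69.8, 60.7, 76.7, 64.1 and 57.8 CPM, a difference of -0.36 (SE 0.08, adjusted p = 0.0569, edgeR). Over single mice left out, the adjusted p in motor cortex ran from 0.0037 to 0.308, and it was under 0.05 without aDR mouse 64. Medulla had 62.6, 59.0, 56.4 and 61.8 CPM in AL mice and 56.2, 43.9, 44.2, 56.2 and 41.9 CPM in aDR mice (-0.28, SE 0.09, adjusted p = 0.664). In pons the value of aDR mouse 67 (11.5 CPM) stood apart from the other restricted mice (32.5, 32.2, 34.9 and 40.4 CPM), and 23.4% of that library's counts came from its 10 highest genes. The difference in pons without that library was -0.35, and over all regions without 7 libraries that stood apart it was -0.29 (adjusted p = 0.0368). The test for a diet effect that differs between regions gave an adjusted p of 1 for Gabra2 and called 0 of the 8 genes (edgeR, 0.0128% of all genes called). Of the 8 genes, Gabra6 alone had an unadjusted p under 0.05 (0.00768, edgeR), beside 2.13% of all genes. Most libraries outside the cerebellum had 0 counts of Gabra6, so that value rests largely on levels near 0.

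**Figure D3:**
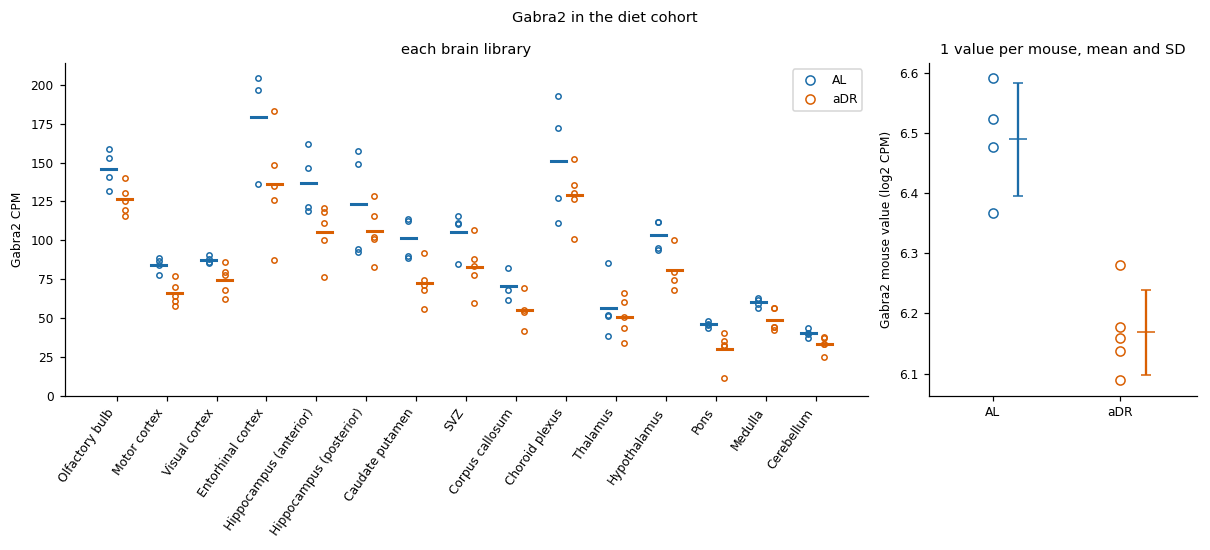
Gabra2 in the diet cohort, AL in blue and aDR in orange. Left, CPM of each library by region (circles) with the group mean (bar). Right, 1 value per mouse (log2 CPM) with mean and SD beside it, where the 5 aDR mice sit between 6.09 and 6.28 and the 4 AL mice between 6.37 and 6.59.

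The marker lists of 15 cell types gave overlapping mouse values in the aDR and AL groups. For the 6 neuron markers the mean difference was -0.01 on the log2 scale, with restricted mice between -0.13 and 0.09 and freely fed mice between -0.08 and 0.07 around the region means. The differences of the other lists ran from -0.17 for hindbrain neurons to 0.26 for choroid plexus epithelium. The share of counts in the 10 highest genes and the total counts also overlapped between the groups. The part of cell make-up in the Gabra2 difference was not tested.

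The call for Gabra2 over all regions rests on few mice. Leaving out single mice kept the difference between -0.36 and -0.29, while the adjusted p ran from 0.0334 to 0.0930 and stayed under 0.05 only without aDR mouse 64 or aDR mouse 67. Without choroid plexus and corpus callosum it was -0.33 with an adjusted p of 0.0639.

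None of the other 7 genes was called for diet over all regions. Gabrb1 was lower by a log2 difference of -0.11 (SE 0.040, interval -0.20 to -0.02, unadjusted p = 0.0229, adjusted p = 0.225, limma), with 6.95, 6.91, 7.01, 6.997 and 6.90 in the aDR mice and 7.03, 7.03, 7.16 and 7.02 in the AL mice. It was lower in 14 of 15 regions. The interval was -0.11 to 0.06 for Gabra4 and -0.20 to 0.06 for Gabra3. The interval was -0.29 to 0.17 for Gabra5, -0.31 to 0.10 for Gabrb2 and -0.33 to 0.08 for Gabrd, so of these genes that of Gabrd alone held the difference found for Gabra2. Without Gabra6, the point estimates were all below 0, while the median over all genes was -0.01. For Gabra6 the value over all regions says little, since most libraries outside the cerebellum had 0 counts: it was -0.01, and 0.21 with limma-voom. In cerebellum, where it is expressed, Gabra6 was 579, 513, 559, 526.5 and 543 CPM in aDR mice and 502, 448, 402 and 547 CPM in AL mice. The groups overlapped, and the log2 difference was 0.21 (SE 0.081, unadjusted p = 0.0240, adjusted p = 0.296, edgeR). Within regions, 0 of 106 tests of the 8 genes were called (Gabra6 passed the filter on low counts in cerebellum alone), where 0.0525% of all tests were called. Of the 106 tests, 14 had an unadjusted p under 0.05 (edgeR), beside 6.24% of all tests. Gabra2 gave 8 of these 14, in regions of the same mice. With DESeq2 in place of edgeR 1 of the 106 tests was called, Gabra2 in motor cortex (adjusted p = 0.00997).

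**Figure D4:**
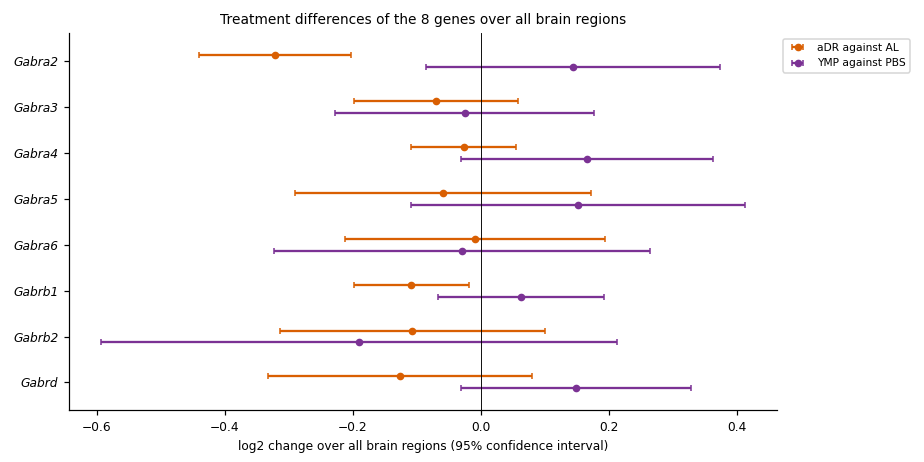
Log2 difference of the mouse values of the 8 genes over all brain regions with 95% confidence interval, aDR against AL in orange and YMP against PBS in purple. Gabra2 in the diet cohort (-0.32) is the interval farthest from 0, and in the plasma cohort every interval holds 0.

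Young plasma gave no call over all regions, for these 8 genes or for any of the 15768 genes tested (limma), and 0 of the 8 had an unadjusted p under 0.05. Gabra2 was at 6.61, 6.53 and 6.74 in YMP mice 73, 77 and 81 and at 6.24, 6.51, 6.58 and 6.60 in PBS mice 72, 76, 80 and 84, so the groups overlapped. The difference was 0.14 (SE 0.098, interval -0.09 to 0.37). That interval lies above the one for diet (-0.44 to -0.20), but the 2 treatments were given to different sexes and the difference between them was not tested. The largest estimates were -0.19 (SE 0.172) for Gabrb2 and 0.17 (SE 0.084) for Gabra4. PBS mouse 84 stood apart for Gabrb2, at 7.04 beside 6.32 to 6.40 in the other PBS mice, and without it the difference was -0.03. Within regions 0 of 105 tests were called, where 0.0127% of all tests were called, and 7 had an unadjusted p under 0.05, as had 6.11% of all tests. Of the marker lists of 15 cell types, 4 gave mouse values that did not overlap between YMP and PBS mice over all regions. They were choroid plexus epithelium (log2 difference -1.51), hepatocytes (-2.18), thalamic neurons (-0.17) and astrocytes (-0.12). Ttr is on both the plexus and the hepatocyte list, so the differences of these lists are not separate. In SVZ libraries 1 of the 6 hepatocyte markers had a mean of 1 CPM or more. For the 6 neuron markers the difference was 0.02, with overlap. Their part in the values of the 8 genes was not tested. With 3 against 4 mice the exact permutation test cannot go below 0.0571. Mouse values overlapped between YMP and PBS for all 8 genes, while those of 10.1% of all genes did not.

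Gabrd was the single gene of the 8 whose plasma effect differed between regions (adjusted p = 0.0407, edgeR's quasi-likelihood test of the interaction, where 0.824% of genes were called). Its largest differences within a region were in hypothalamus and medulla, in opposite directions. Hypothalamus libraries of YMP mice 73, 77 and 81 held 14.3, 20.05 and 4.35 CPM of Gabrd, and those of PBS mice 72, 80 and 84 held 0.757, 0.977 and 2.64 CPM. The YMP libraries were all higher, and all 3 were also above the 8 hypothalamus libraries of the diet cohort (0.771 to 3.24 CPM). Within hypothalamus alone the log2 difference was 3.32 (SE 0.67, unadjusted p = 0.00122, adjusted p = 0.881, edgeR), and DESeq2 gave an adjusted p of 1.66e-04. In medulla Gabrd was 1.07, 1.46 and 1.52 CPM (7 to 21 counts) in YMP mice 73, 77 and 81 and 4.78, 1.51, 2.17 and 6.40 CPM in PBS mice 72, 76, 80 and 84, a log2 difference of -1.52 (SE 0.45, unadjusted p = 0.00634, adjusted p = 0.447, edgeR). These groups overlapped, and the highest value was that of the library with 14.6 CPM of Gabra6. Gabra4 in the hypothalamus libraries was 116, 205 and 91.8 CPM in YMP and 64.5, 66.3 and 94.1 CPM in PBS mice (0.90, SE 0.30, adjusted p = 0.998).

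Markers of thalamic neurons moved with Gabrd in these libraries. The summed level of 6 markers (Prkcd, Tcf7l2, Rora, Lef1, Plekhg1 and Ramp3) was 579, 828.6 and 348 CPM in YMP mice 73, 77 and 81 and 173, 172 and 300 CPM in PBS mice 72, 80 and 84, where thalamus libraries held 2092 to 4275 CPM. Prkcd alone was 106, 176 and 30.6 CPM against 17.4, 12.5 and 22.6 CPM. None of the 6 markers was at 0 in any of these libraries. Thalamus is the region in which Gabra4 was highest and Gabrd among the highest. Without hypothalamus the adjusted p for Gabrd was 1, and it was also 1 without the libraries that stood apart, among them hypothalamus of YMP mice 73 and 77. With the mouse as a replicate block it was 0.0512. Over single mice left out it ran from 0.0463 to 0.609 and was under 0.05 only without PBS mouse 76, a mouse with no hypothalamus library. The part of thalamic tissue in these hypothalamus libraries was not tested.

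**Figure D5:**
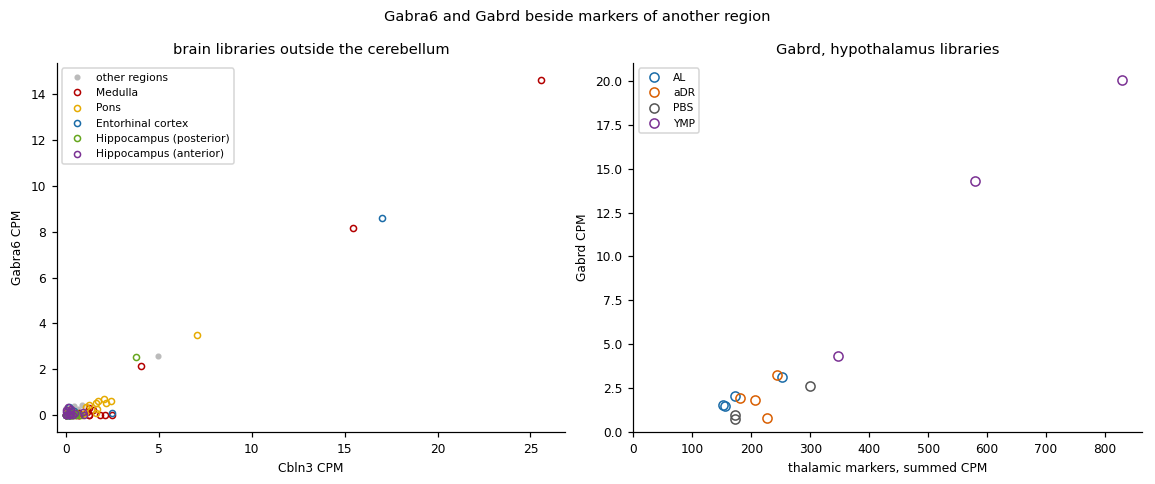
Left, Gabra6 against the granule cell gene Cbln3 (both CPM) in brain libraries outside the cerebellum, where the libraries with Gabra6 above 2 CPM also hold the most Cbln3. Right, Gabrd against the summed level of 6 thalamic markers (both CPM) in the 14 hypothalamus libraries by treatment, where YMP mice 73 and 77 sit at 14.3 and 20.05 CPM of Gabrd.

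Other genes of GABA transmission were measured beside the subunits. Of 11 further rows whose symbols start with Gabr, Gabrg1, Gabrq and Gabre were highest in hypothalamus (185 ± 17.7, 103 ± 21.9 and 20.2 ± 7.11 CPM in AL mice, n = 4 each), the region in which Gabrb1 was highest too, and Gabrg3, a gamma subunit gene, in SVZ (87.3 ± 9.13 CPM). None of the further Gabr rows tested was called for diet (0 of 8, 2 with an unadjusted p under 0.05) or plasma (0 of 10, 0 with such a p). Over all genes, 16.1% had such a p for diet and 8.09% for plasma. In the list of 18 genes for GABA synthesis, transport, receptor anchoring and GABA-B receptors, 0 were called for either treatment (limma), and 3 and 2 had an unadjusted p under 0.05 for diet and plasma. Their median log2 difference was -0.04 for diet and -0.03 for plasma. By highest region, several of these genes went with one of the 8. Gabbr1 and Gabbr2, the GABA-B receptor genes, were highest in thalamus (420 ± 51.9 and 567 ± 125 CPM in AL mice, n = 4), as was Gabra4. Abat, which breaks GABA down, was highest in hypothalamus (661 ± 59.6 CPM, n = 4), as was Gabrb1. Lhfpl4 (hypothalamus) and Slc6a13 (entorhinal cortex) shared such a region in AL mice alone, and Nlgn2 (cerebellum) in PBS mice alone.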

How the data were processed

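The authors deposited a table of whole read counts per gene for 238 bulk libraries, made by Smart-Seq2 and Nextera XT without strand or molecular identifiers, per the labels' protocols. The submitters' processing notes name Trim Galore 0.3.7, STAR 2.5.3a, DESeq2 and GRCm38, and the counting program and annotation are not given in the sources used here. Of the 21076 rows, 537 held no count. Each library is 1 region of 1 mouse, so replicates are separate mice. PCR copies are not independent molecules, so all depths cover counting error only.

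Counts were normalised by TMM after filterByExpr (minimum count 10, minimum total 15) and tested with edgeR 4.0.16 (quasi-likelihood, R 4.3.3), with p adjusted over all genes tested. Treatment over all regions was tested with limma 3.58.1 on 1 value per mouse (log2 CPM, prior count 2, region adjusted). DESeq2 1.42.0, limma-voom, other scalings, no filter, leaving out mice, regions or doubted libraries, and the mouse as a block were alternatives. Both test procedures were tested on simulated data. A mouse number marks the same animal in every region. Residuals of libraries of the same mouse correlated by a mean r of 0.0400 in the diet cohort (-0.0049 between mice) and 0.0717 in the plasma cohort (-0.0120).

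The 8 genes, the marker lists and the other lists were chosen with earlier results of these data known. Named by rule were the 8 genes, other Gabr rows with a region mean of at least 10 CPM in AL mice, genes of GABA transmission that were called or shared the highest region of one of the 8, and the 3 genes most like each by the smaller of its 2 correlations over region means. Some rows that the rule would name are not reported here. The liver libraries enter no comparison.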

Additional observations from a re-analysis of the deposited data

Results flagged for a closer look

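Values that stood apart from the other mice of their group were found in 30 of 287 groups of 4 to 10 values tested, where chance flags about 1 in 20, or 14.35. They came from many regions and most mice of the 3 groups that have 4 or more mice.

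For Gabra2, pons of aDR mouse 67 had 11.5 CPM (others 32.2 to 40.4) and SVZ of AL mouse 66 had 84.7 CPM (others 110 to 115). For Gabra3, aDR mouse 67 was high in anterior hippocampus at 67.8 CPM (others 21.4 to 32.5) and in SVZ at 70.0 CPM (others 33.9 to 44.3). Gabra3 was low in motor cortex of PBS mouse 72 at 82.1 CPM (others 116 to 121) and in thalamus of aDR mouse 65 at 73.8 CPM (others 115 to 132). For Gabra4, choroid plexus of PBS mouse 76 had 205 CPM (others 149 to 151), olfactory bulb of PBS mouse 84 had 144 CPM (others 135 to 136), and pons of AL mouse 68 had 74.0 CPM (others 18.9 to 26.2). For Gabra5, medulla of AL mouse 63 had 103 CPM (others 61.8 to 65.6), SVZ of aDR mouse 67 had 83.4 CPM (others 44.4 to 52.4), and thalamus of aDR mouse 64 had 84.4 CPM (others 35.4 to 45.5). For Gabra6, entorhinal cortex of aDR mouse 62 had 8.59 CPM, medulla of AL mouse 66 had 8.17 CPM and medulla of PBS mouse 84 had 14.6 CPM.

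For Gabrb1, anterior hippocampus of aDR mouse 67 had 130 CPM (others 178 to 195) and SVZ of PBS mouse 72 had 91.4 CPM (others 157 to 167). Gabrb1 was high in AL mouse 68, at 152 CPM in motor cortex (others 139 to 140) and 127 CPM in pons (others 56.4 to 66.4), and in olfactory bulb of aDR mouse 65 at 103 CPM (others 76.5 to 82.6). For Gabrb2, entorhinal cortex of PBS mouse 84 had 154 CPM (others 74.8 to 88.2). In AL mouse 69, Gabrb2 was at 82.2 CPM in anterior hippocampus (others 68.2 to 70.3) and at 42.1 CPM in hypothalamus (others 54.0 to 56.0). For Gabrd, caudate putamen of aDR mouse 64 had 257 CPM (others 136 to 161), posterior hippocampus of AL mouse 68 had 31.3 CPM (others 35.7 to 36.5), and motor cortex of PBS mouse 84 had 85.2 CPM (others 78.1 to 78.6).

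Among the values per mouse over all regions (log2 CPM), Gabra4 was 7.31 in aDR mouse 65 (others 7.21 to 7.24). Gabrb1 was 7.16 in AL mouse 68 (others 7.02 to 7.03) and 6.84 in PBS mouse 72 (others 6.996 to 7.01). Gabrb2 was 7.04 in PBS mouse 84 (others 6.32 to 6.40).

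The effect of young plasma on Gabrd differed between regions with an adjusted p of 0.0407 (edgeR), the value that was lost without hypothalamus.

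In the 9 liver libraries of the diet cohort, which enter no comparison here, Gabra3 had a median of 3.30 CPM (2.49 to 5.43 CPM, 15 to 49 counts), above the limit of 3 counts in 9 of 9 libraries. Gabra5 and Gabra6 had 0 counts in these libraries.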

How the results depend on the processing

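Of 681 values recomputed under an alternative, 646 kept their direction and side of the threshold, 17 lost a call, 4 gained one and 14 changed sign. All lost calls were for treatment. Gabra2 for diet over all regions lost its call in 8 of 15 alternatives. The Gabrd plasma effect that differs between regions lost its call in 9 of 13. The test across regions called 8 of 8 genes under every alternative run, in both cohorts. Each region against the rest gave 67 to 92 calls in AL mice (69 to 79 with single mice left out) and 61 to 83 in PBS mice (59 to 73). The 13 calls in pairs of related regions in AL mice became 20 with all brain libraries of the cohort and ran from 8 to 14 with single mice left out. The 7 in PBS mice became 4 without a filter and ran from 2 to 9. With the mouse as a replicate block these pairs gave 13 and 7 calls. Within regions, diet gave 1 call without a filter and 1 with DESeq2 (0 to 1 without single mice), and plasma 1 with DESeq2 (0 to 0). Over all regions, diet gave 1 call, 0 without choroid plexus and corpus callosum, and 0 to 1 without single mice, while plasma gave 0. The plasma effect that differs between regions had 1 call, and 0 with the replicate block, without hypothalamus or without the doubted libraries (0 to 1 without single mice). The block changed no other call of a treatment. Sign changes were seen for small differences. Gabra2 in thalamus ran from -0.29 to 0.0946 without single mice. Gabra6 for diet was 0.21 with limma-voom, 0.0016 without choroid plexus and corpus callosum, and -0.0873 to 0.0649 without single mice. Gabra6 for plasma was 0.12 with a prior count of 0.5, 0.0709 without the doubted libraries and -0.0954 to 0.0537 without single mice, and Gabra3 for plasma was -0.0757 to 0.0365. The causes were not tested. The doubted libraries and hypothalamus were left out after seeing the data. Gabra6 outside the cerebellum and Gabrd in hypothalamus, medulla and pons rest on few counts.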

Other observations

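Gabrr2, the gene of a rho subunit of the GABA-A family, was chosen after its values were seen. Its mouse values over all regions were 1.48, 1.30, 1.23, 0.99 and 1.96 log2 CPM in aDR mice and 0.26, 0.67, 0.66 and 0.57 in AL mice, without overlap. Mouse values did not overlap for 8.30% of all genes. The log2 difference was 0.85 (SE 0.178, interval 0.45 to 1.26), and it failed the correction over all genes (unadjusted p = 9.5e-04, adjusted p = 0.0661, limma). Of the genes tested in all 15 regions, 1.69% were higher in aDR mice in every one. Gabrr2 was higher in aDR mice in 11 of 11 regions tested, and in the other regions it did not pass the filter on low counts. The 1.69% therefore does not apply to it, and the share for genes tested in 11 regions was not computed. Its level was low, with a mean of 0.54 log2 CPM in AL mice. For young plasma its difference was -0.17 with an adjusted p of 0.718 (limma).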
